A study of Homo sapiens with 12 samples.

Results

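TGFB1, TGFB2, TGFBR1, TGFBR2, SMAD3, SMAD4, SMAD7, TGFBI, BMP4 and BMPR1B are genes of the TGF-β and BMP pathways, and their expression was compared between 2 populations of the pancreatic cancer cell line PANC-1. They were taken by gene symbol, but were chosen with earlier results of these data known. All 10 were among the 23284 gene symbols listed, and all 10 were among the 12946 genes kept for testing. BMPR1B passed this filter only through its level in degron (++) cells, so it is left out wherever members are counted.

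PANC-1 is an established epithelial line from a human pancreatic ductal carcinoma. Both populations carry a retroviral fusion of the green fluorescent protein ZsGreen with the degron of ornithine decarboxylase, which the proteasome destroys, so that ZsGreen accumulates where proteasome activity is low. Degron (−) cells are the infected line, in which ZsGreen-positive cells are rare, and degron (++) cells are the brightest cells of a line that was enriched by repeated sorting and culture. The study used degron (++) cells as a model of radioresistant cancer stem-like cells. RNA was sequenced in 12 libraries. Each population was sampled without irradiation (0 Gy) at 48 h, and with 4 Gy at 30 h and at 48 h, with 2 libraries in each of the 6 groups. The origin of the hours is not in the labels, which also do not say whether the 2 libraries of a group came from separate cultures, so p-values measure only the spread between these samples, which may be technical. The libraries taken as degron (−) are ZsGreen– in their titles but d+ in their descriptions. All 12 libraries also expressed CDKN2A, CDKN2B and MTAP of 9p21, a region that PANC-1 is known to lack, so these values go against the labelled line. Its identity was not tested, and PANC-1 stands here for the line as the labels name it. Each of the 12 libraries correlated best with libraries of its own population. In bulk RNA, fewer cells that express a gene and less RNA per cell cannot be told apart.

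TGF-β and BMP ligands are secreted dimers that bring type I and type II receptor kinases together at the cell surface. The active receptors phosphorylate receptor SMADs, which bind SMAD4, enter the nucleus and regulate target genes, while inhibitory SMADs such as SMAD7 are induced by the pathway and restrain it. TGF-β slows the growth of normal pancreatic epithelium, and the pathway is often altered in pancreatic cancer, where SMAD4 is among the genes most often inactivated.

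Values are FPKM, the fragments counted on a gene scaled to the length of its exons and to the mapped fragments of the library, so that levels of different genes can be compared. Differences are log2 fold changes of FPKM + 1 from limma, and a gene passed the threshold where its p, adjusted by Benjamini-Hochberg over all tested genes, was under 0.05. The pseudocount of 1 makes them smaller than the ratio of FPKM for genes with low values. The number of reads behind a value is not known, and the steps between the lowest values put the depth of the libraries between 0.8615 and 1.17 relative to each other. The FPKM of all genes summed to 829654 to 916877 in degron (++) libraries and to 707273 to 763064 in degron (−) libraries. Dividing each library by its own sum (TPM) moved the median log2 difference of all genes between the populations from between -0.02 and -0.01 to between -0.27 and -0.21, and the share of called genes that were higher in unirradiated degron (++) cells from 48.3% to 35.9%. The share of MIR622 in these sums ranged from 22.5% to 27.1% for degron (−) libraries and from 28.6% to 29.95% for degron (++) libraries. All 6 epithelial markers were at FPKM of at least 1 in every library, and all 6 were higher in degron (++) cells in each of the 3 conditions, with a median log2 fold change of 1.38 at 0 Gy, 1.69 at 30 h and 1.27 at 48 h after 4 Gy. They summed to 7184 to 8369 FPKM in degron (++) and 4226 to 5137 FPKM in degron (−) libraries, and the adhesion gene CDH1 measured 62.8 to 66.6 and 6.56 to 12.8 FPKM. This difference moved with every comparison of the populations given here, and its part in them was not tested. The smallest marker difference was that of KRT19, at 0.17 at 0 Gy, 0.43 at 30 h and 0.23 at 48 h after 4 Gy. Its values at 0 Gy and at 48 h were about the size by which TPM lowered the median of all genes. The markers are given with FPKM only. The paper reports no increase of KRT19 in degron (++) cells. The 9 fibroblast markers summed to 14.8 to 25.6 FPKM in degron (++) and 37.7 to 54.3 FPKM in degron (−) libraries. The 2 that were tested lay on opposite sides, LUM at 13.8 to 24.7 against 0.29 to 1.605 FPKM and COL1A1 at 0.531 to 0.826 against 36.5 to 52.3 FPKM, while DCN was at 0 in all libraries, and leukocyte markers summed to at most 2.04 and endothelial markers to at most 0.556 FPKM.

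The levels of the members spanned a wide range. In degron (++) cells the order of the medians over 6 libraries was TGFBI (357 FPKM), TGFBR2 (50.3), SMAD3 (45.1), TGFB1 (40.1), BMP4 (21.1), TGFB2 (16.1), TGFBR1 (8.06), SMAD7 (2.91), SMAD4 (1.67) and BMPR1B (1.14). SMAD3 and TGFB1 overlapped in this order, and so did SMAD7 and SMAD4. In degron (−) cells the order was TGFBI (351 FPKM), SMAD3 (80.9), TGFB1 (32.3), TGFBR2 (23.3), TGFB2 (10.1), TGFBR1 (5.52), BMP4 (4.64), SMAD7 (4.27), SMAD4 (2.28) and BMPR1B (0.058). TGFBR1, BMP4 and SMAD7 overlapped there. TGFBR2 and BMP4 stood higher in the order of degron (++) cells, and SMAD3 stood above TGFBR2 only in degron (−) cells.

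**Figure D1:**
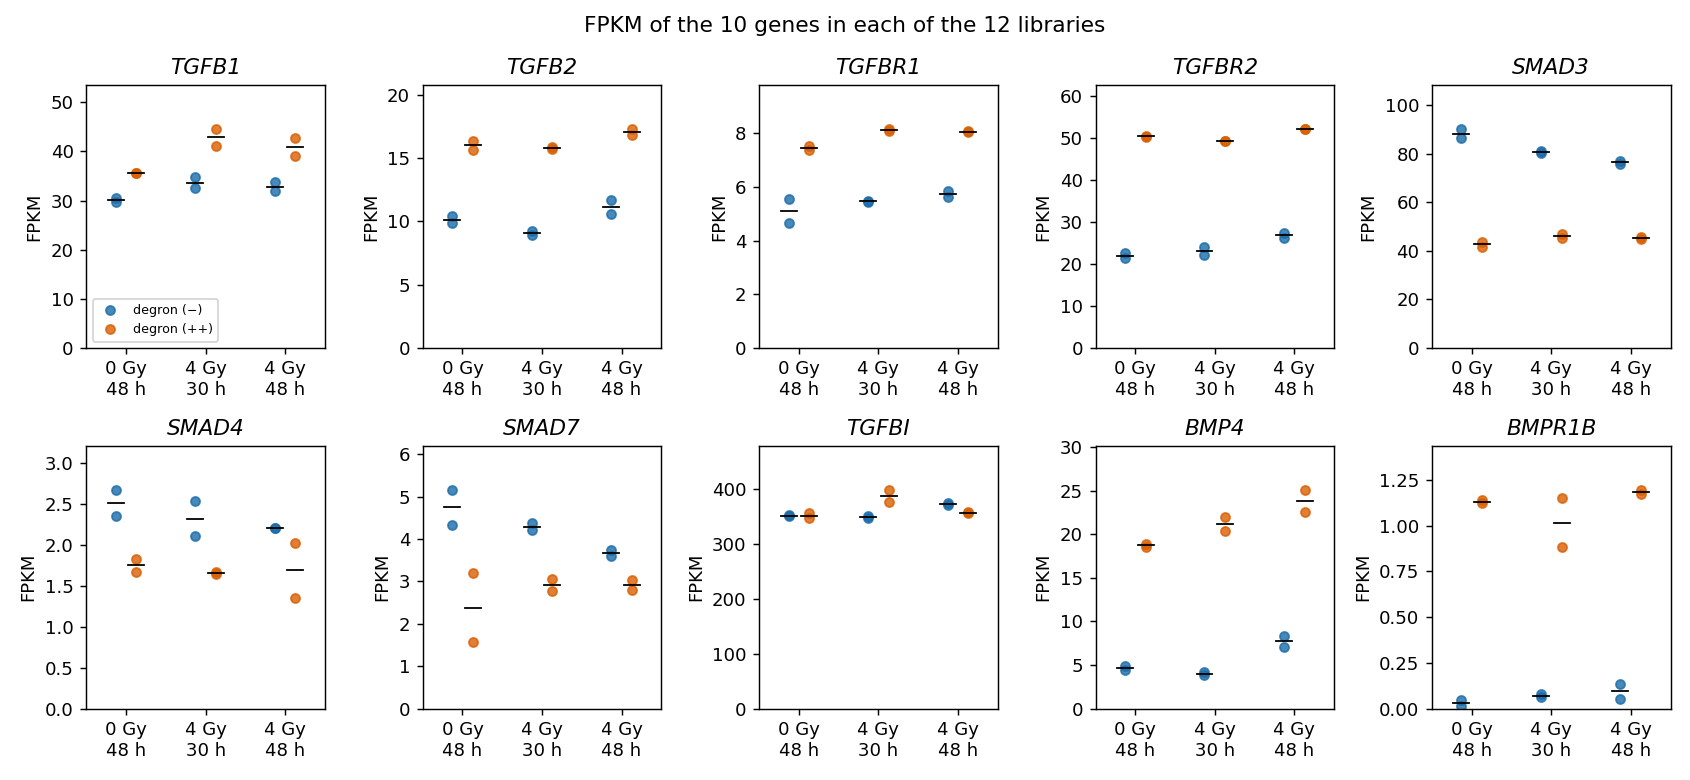
FPKM of the 10 genes (vertical axis, each panel with its own scale from 0) by dose and time (horizontal axis); points are libraries, 2 per group, and black lines are group means. BMP4 in degron (++) cells (18.6 to 25.1 FPKM) lay above degron (−) cells (3.88 to 8.39), SMAD3 lay below (41.7 to 47.1 against 75.9 to 90.3), and TGFBI overlapped.

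Of the 9 members other than BMPR1B, 5 were higher and 3 lower in unirradiated degron (++) cells than in degron (−) cells, and 1 did not pass the threshold. Among all tested genes 77.7% passed it in this comparison, 37.6% as higher and 40.2% as lower, so that a call by itself was the usual outcome for a gene of these cells. At 4 Gy and 30 h, 6 were higher and 2 lower, where 79.1% of all genes passed, 38.3% as higher and 40.8% as lower. At 4 Gy and 48 h, 5 were higher and 1 lower, where 76.7% passed, 37.1% as higher and 39.6% as lower. The median log2 fold change of these 9 genes was 0.24, 0.34 and 0.31 in the 3 conditions, beside -0.02, -0.02 and -0.01 for all genes. TGFB1, TGFB2, TGFBR1, TGFBR2 and BMP4 were higher in every degron (++) library than in every degron (−) library, as were 34.1% of all genes. SMAD3, SMAD4 and SMAD7 were lower in every degron (++) library, as were 37.2% of all genes. With FPKM and without BMPR1B, the ligands and receptors among the members were thus on the higher side and the SMADs on the lower side. This covers the members only. The remaining TGF-β ligand gene, TGFB3, was lower in unirradiated degron (++) cells, at 0.71 against 3.93 FPKM (log2 fold change -1.52). It reached FPKM of 1 in no degron (++) library. As lower, SMAD4 passed the threshold in 2 and SMAD7 in 1 of the 3 conditions.

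**Figure D2:**
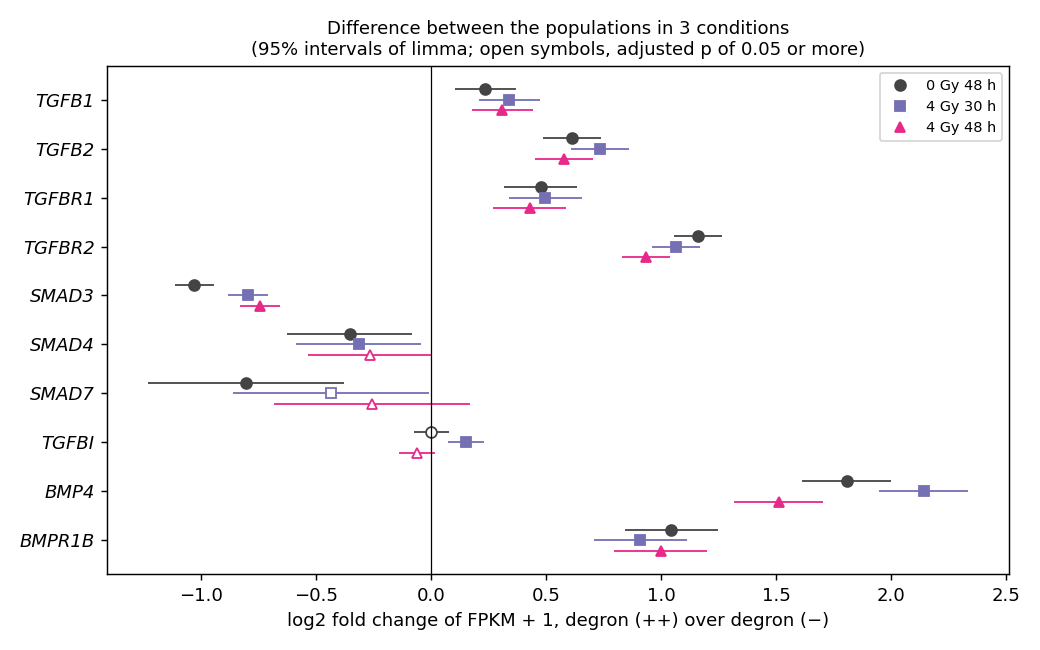
Log2 fold change of FPKM + 1 in degron (++) over degron (−) cells (horizontal axis) for each gene (vertical axis), with 95% intervals from limma; symbols give the condition, and open symbols have an adjusted p of 0.05 or more. Differences ran from -1.03 for SMAD3 at 0 Gy to 2.14 for BMP4 at 4 Gy and 30 h.

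Leaving out BMPR1B, BMP4 (higher) and SMAD3 (lower) had the members' largest log2 fold changes in each direction at 0 Gy. Their promoters are shown because these genes carry the contrast between ligand and SMAD. Each is the 250 bases before the first listed start in RefSeq (GRCh38.p14), at chr14:53955051-53955300 on the minus strand for BMP4 and chr15:67065352-67065601 on the plus strand for SMAD3, written 5′ to 3′ along the gene. Capitals mark CAGAC, the box to which SMAD3 and SMAD4 are known to bind, and GGCGCC, a GC-rich sequence known from BMP-responsive SMAD binding, on either strand.
BMP4: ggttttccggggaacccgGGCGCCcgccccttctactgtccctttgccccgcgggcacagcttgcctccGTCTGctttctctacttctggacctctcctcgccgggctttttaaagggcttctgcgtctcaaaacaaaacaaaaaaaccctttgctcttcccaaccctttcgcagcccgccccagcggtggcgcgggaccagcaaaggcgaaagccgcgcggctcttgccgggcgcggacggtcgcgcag
SMAD3: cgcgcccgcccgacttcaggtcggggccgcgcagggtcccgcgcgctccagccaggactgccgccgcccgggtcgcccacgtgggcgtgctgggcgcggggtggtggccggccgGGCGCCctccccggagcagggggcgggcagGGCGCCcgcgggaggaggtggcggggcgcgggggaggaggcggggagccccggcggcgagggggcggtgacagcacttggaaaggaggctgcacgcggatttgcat
The BMP4 window held 1 CAGAC, on the opposite strand, and 1 GGCGCC, and the SMAD3 window held 2 GGCGCC and no CAGAC. This holds for the first listed start: of 5 listed for SMAD3, 2 had a CAGAC in their window and 1 a GGCGCC, and of 3 listed for BMP4, 2 had a CAGAC and 1 a GGCGCC. Of 35116 windows of this length, 38.0% held a CAGAC and 16.4% a GGCGCC. At their first start TGFB2, TGFBR1 and SMAD7 also held a CAGAC, and SMAD4 and TGFBI a GGCGCC. At other starts 1 of 3 windows of BMPR1B held a CAGAC and 1 of 8 of TGFBR1 a GGCGCC. Both members that were higher and members that were lower thus held either motif. The palindrome GTCTAGAC was in 0.182% of windows and in none of the windows at the members' first starts.

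BMP4, a ligand of the BMP branch, had the largest log2 fold change of FPKM + 1 among the members. Its place above BMPR1B did not hold under every alternative. At 0 Gy BMPR1B reached 3.23 among the alternatives, and BMP4 at most 1.99. BMP4 measured 18.6 and 18.9 FPKM in unirradiated degron (++) libraries, 20.3 and 21.9 at 30 h after 4 Gy, and 22.6 and 25.1 at 48 h. In degron (−) libraries it measured 4.85 and 4.42, 3.88 and 4.14, and 7.07 and 8.39 FPKM in the same order. The lowest degron (++) library was above the highest degron (−) library, and the ratio of mean FPKM was 4.04, 5.27 and 3.09 in the 3 conditions. On the log2 scale the difference was 1.81 at 0 Gy (standard error 0.0849, with an adjusted p of 9.1e-08 from limma), 2.14 at 30 h and 1.51 at 48 h after 4 Gy.

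TGFB1 and TGFB2 encode ligands of the TGF-β branch. TGFB2 measured 16.4 and 15.7 FPKM in unirradiated degron (++) libraries, 15.8 and 15.7 at 30 h, and 16.8 and 17.3 at 48 h. In degron (−) libraries the values were 10.4 and 9.85, 9.23 and 8.94, and 10.5 and 11.7 FPKM. The populations did not overlap, and mean FPKM was 1.58-fold, 1.74-fold and 1.54-fold higher in degron (++) cells. TGFB2 had log2 fold changes of 0.61 (limma, standard error 0.0559, adjusted p = 7.6e-06) at 0 Gy, 0.74 at 30 h and 0.58 at 48 h.

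The difference of TGFB1 was smaller. It measured 35.7 and 35.6 FPKM in unirradiated degron (++) libraries, 44.6 and 41.1 at 30 h, and 39.1 and 42.8 at 48 h. In degron (−) libraries the values were 30.5 and 29.8, 34.7 and 32.6, and 33.7 and 31.9 FPKM. The highest degron (−) library, at 30 h, lay just below the lowest degron (++) library, an unirradiated one. TGFB1 had log2 fold changes of 0.24 (adjusted p = 0.00478), 0.34 (adjusted p = 0.000513) and 0.31 (adjusted p = 0.000975, limma). With TPM it was 0.03, 0.06 and 0.05 and passed the threshold in none of the 3 conditions (lowest adjusted p = 0.423, limma). With TPM computed without MIR622 it was 0.12, 0.19 and 0.12 and passed at 30 h (adjusted p = 0.0255, limma). Relative to the median of all genes, TGFB1 was higher by 0.26, 0.36 and 0.32 with FPKM and by 0.25, 0.34 and 0.30 with TPM.

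TGFBR2, the type II receptor that binds TGF-β and recruits TGFBR1, had the steadiest level of the members in degron (++) cells, where its highest library was 1.06-fold its lowest. It measured 50.1 and 50.5 FPKM in unirradiated degron (++) libraries, 49.2 and 49.3 at 30 h, and 52.1 in both libraries at 48 h. Degron (−) libraries gave 22.6 and 21.3, 22.2 and 23.9, and 26.2 and 27.3 FPKM. All degron (++) libraries lay far above all degron (−) libraries, by a ratio of mean FPKM of 2.29, 2.14 and 1.95. This gave log2 fold changes of 1.16 (limma, standard error 0.0457, adjusted p = 3.2e-08) at 0 Gy, 1.07 at 30 h and 0.94 at 48 h.

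TGFBR1, the type I receptor kinase that phosphorylates SMAD3, measured 7.39 and 7.54 FPKM in unirradiated degron (++) libraries, 8.11 and 8.18 at 30 h, and 8.04 and 8.08 at 48 h. Degron (−) libraries gave 5.55 and 4.64, 5.45 and 5.50, and 5.62 and 5.84 FPKM. Again no degron (−) library reached the level of a degron (++) library. Log2 fold changes were 0.48 (limma, standard error 0.0697, adjusted p = 0.000192), 0.50 and 0.43.

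BMPR1B, a type I receptor for BMP ligands, was near the lower limit of measurement. It measured 1.12 and 1.14 FPKM in unirradiated degron (++) libraries, 0.883 and 1.15 at 30 h, and 1.17 and 1.20 at 48 h. In degron (−) libraries it measured 0.048 and 0.016, 0.061 and 0.080, and 0.055 and 0.133 FPKM. It was thus detected in every library but reached FPKM of 1 in 5 degron (++) libraries and in no degron (−) library. Its log2 fold change was 1.05, 0.91 and 0.999, and the filter required a level that degron (−) cells did not have. Ratios of these FPKM are not given because the reads behind the degron (−) values are not known.

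SMAD3, the receptor SMAD of the TGF-β branch, was the most abundant SMAD of the members and was lower in degron (++) cells. It measured 43.8 and 41.7 FPKM in unirradiated degron (++) libraries, 45.3 and 47.1 at 30 h, and 45.5 and 44.9 at 48 h. Degron (−) libraries gave 90.3 and 86.3, 80.5 and 81.3, and 75.9 and 77.0 FPKM. The populations lay far apart, and mean FPKM was 2.07-fold, 1.75-fold and 1.69-fold higher in degron (−) cells. SMAD3 thus had log2 fold changes of -1.03 (limma, standard error 0.0379, adjusted p = 2.1e-08) at 0 Gy, -0.80 at 30 h and -0.74 at 48 h.

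SMAD4, the partner shared by the TGF-β and BMP branches, was low in both populations. It measured 1.82 and 1.67 FPKM in unirradiated degron (++) libraries, 1.64 and 1.67 at 30 h, and 2.02 and 1.35 at 48 h. In degron (−) libraries the values were 2.67 and 2.35, 2.53 and 2.10, and 2.21 and 2.20 FPKM. Every degron (−) library was above every degron (++) library, but by little. Log2 fold changes were -0.35 (adjusted p = 0.0222) at 0 Gy, -0.31 (adjusted p = 0.0359) at 30 h and -0.27 (adjusted p = 0.0688, limma) at 48 h. The call at 0 Gy was lost without degron (++) replicate 2 (adjusted p = 0.0984) or degron (−) replicate 1 (adjusted p = 0.113), and the call at 30 h without either degron (++) library or degron (−) replicate 1 (adjusted p = 0.0927 to 0.193). With quantile normalization both calls were lost, at -0.15 (adjusted p = 0.281) and -0.0864 (adjusted p = 0.516, limma), and the call at 30 h was also lost without the filter (adjusted p = 0.0520). The value at 48 h passed without degron (++) replicate 1 (adjusted p = 0.00646) and with TPM, at -0.47 (adjusted p = 0.0137, limma).

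SMAD7, an inhibitory SMAD that is itself a target of the pathway, was the member that differed most between the replicates of unirradiated degron (++) cells. It measured 1.58 and 3.19 FPKM in unirradiated degron (++) libraries, 3.05 and 2.78 at 30 h, and 2.80 and 3.02 at 48 h. In degron (−) libraries the values were 5.17 and 4.34, 4.20 and 4.39, and 3.75 and 3.60 FPKM. All degron (−) libraries lay above all degron (++) libraries. The difference passed the threshold at 0 Gy (log2 fold change -0.80, adjusted p = 0.00341), but not at 30 h (-0.44, adjusted p = 0.0570) or at 48 h (-0.26, adjusted p = 0.236, limma). The value at 0 Gy was -0.45 without degron (++) replicate 1 and -1.16 without replicate 2, and passed in both (adjusted p = 0.00479 and 2.5e-05, limma). With TPM all 3 passed, at -1.02, -0.69 and -0.48, while the median of all genes was itself lower. Fitted on only the libraries compared, the FPKM values at 30 h (adjusted p = 0.00653) and at 48 h (adjusted p = 0.0317, limma) passed too. Of 12 alternatives, 3 passed at 30 h and 2 at 48 h.

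TGFBI, a secreted matrix protein named for its induction by TGF-β, was the most abundant member, above 98.3% of tested genes in degron (++) and 98.4% in degron (−) cells. It measured 346 and 356 FPKM in unirradiated degron (++) libraries, 399 and 376 at 30 h, and 357 and 355 at 48 h. In degron (−) libraries it measured 350.4 and 351, 346 and 350.1, and 370.0 and 374 FPKM. The populations overlapped over all conditions. At 0 Gy the log2 fold change was 0.00, with a 95% interval from -0.08 to 0.08 (adjusted p = 0.967, limma), so that a difference beyond this range was not seen with FPKM. It was higher in degron (++) cells at 30 h (0.15, adjusted p = 0.00266), and the value at 48 h was -0.06 (adjusted p = 0.123, limma). These directions depended on the scaling: with TPM all 3 were below 0 and passed the threshold (-0.21, -0.13 and -0.33). Relative to the median of all genes with TPM, TGFBI stood at 0.01, 0.14 and -0.08. With quantile normalization it was -0.0987 (adjusted p = 0.0294), -0.0459 (adjusted p = 0.259) and -0.21 (adjusted p = 0.000467, limma). Relative to the median of all genes in that setting it stood at -0.14, -0.08 and -0.27.

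Irradiation was examined by comparing 4 Gy with 0 Gy at 48 h within each population. Of the 9 members, 3 passed the threshold in degron (−) cells, where 4.73% of all genes did, 3.85% as higher and 0.873% as lower. BMP4 was higher at 4 Gy, at 7.07 and 8.39 against 4.85 and 4.42 FPKM (log2 fold change 0.63, standard error 0.0849, adjusted p = 0.00620, limma). TGFBR2 was higher, at 26.2 and 27.3 against 22.6 and 21.3 FPKM (0.27, adjusted p = 0.0148, limma). SMAD3 was lower, at 75.9 and 77.0 against 90.3 and 86.3 FPKM (-0.21, adjusted p = 0.0214, limma). In each of these genes the irradiated degron (−) libraries lay nearer to degron (++) cells than the unirradiated ones did, yet still far from them. The call of SMAD3 was lost without any of the 4 libraries (adjusted p = 0.0512 to 0.101) and with TPM (adjusted p = 0.105), that of TGFBR2 without degron (−) 4 Gy 48 h replicate 2 (adjusted p = 0.105) or 0 Gy replicate 2 (adjusted p = 0.0902), and that of BMP4 without 0 Gy replicate 2 (adjusted p = 0.0508, limma). Fitted on only the libraries compared, none of the 3 passed.

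In degron (++) cells, 0 of the 9 members passed the threshold of limma for dose, where 1.82% of all genes did and 2282 genes had an unadjusted p under 0.05. The largest value was that of BMP4, at 22.6 and 25.1 FPKM with 4 Gy against 18.6 and 18.9 without (log2 fold change 0.33, 95% interval 0.14 to 0.52, adjusted p = 0.0974, limma). TGFB1 measured 39.1 and 42.8 against 35.7 and 35.6 FPKM (0.19, interval 0.06 to 0.33, adjusted p = 0.135, limma). For TGFBR2 the value was 0.05 (interval -0.05 to 0.15) and for SMAD3 0.08 (interval -0.01 to 0.17). In degron (−) cells these intervals were 0.17 to 0.38 and -0.29 to -0.12. Intervals within each population do not test a difference between them. The difference between the populations in the response to dose was tested as an interaction, and no member passed (0.0772% of all genes did, 0.0232% with a positive and 0.0541% with a negative value). It was 0.29 for SMAD3 (adjusted p = 0.102), -0.22 for TGFBR2 (adjusted p = 0.193) and -0.30 for BMP4 (adjusted p = 0.332, limma). The response to dose is therefore not shown to differ between the populations for any member.

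**Figure D3:**
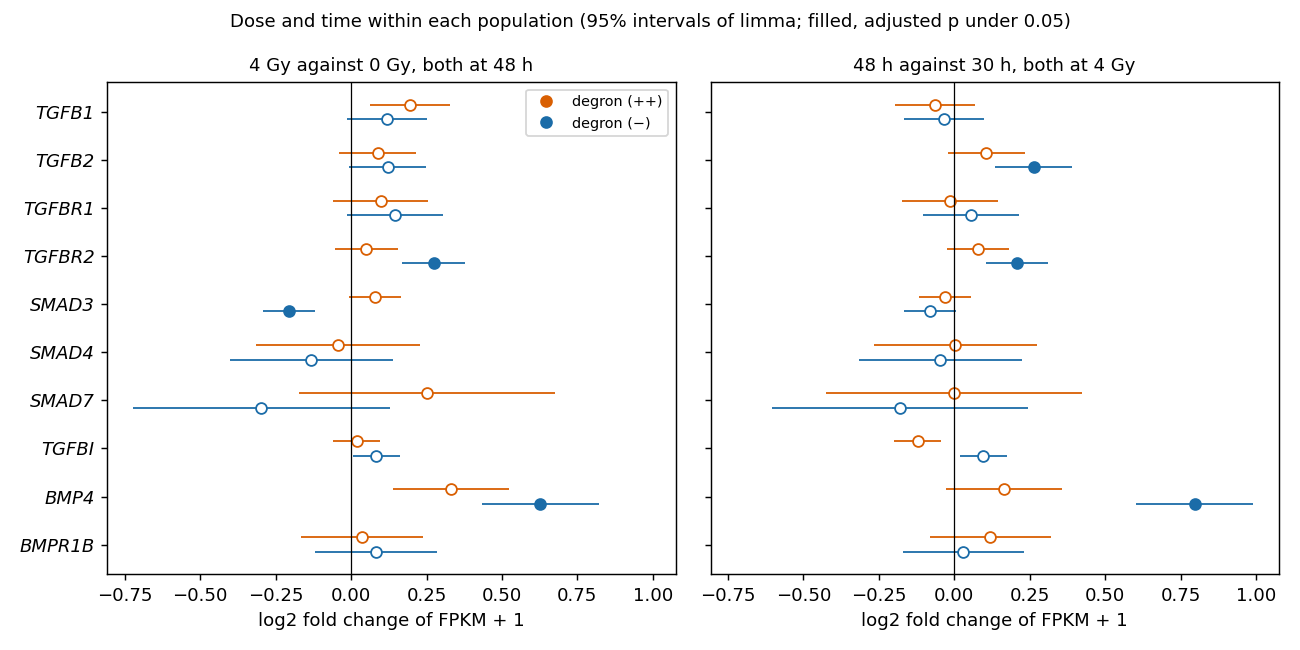
Log2 fold change of FPKM + 1 (horizontal axis) for 4 Gy over 0 Gy at 48 h (left) and for 48 h over 30 h at 4 Gy (right), for each gene (vertical axis) and population (colour), with 95% intervals from limma; filled symbols have an adjusted p under 0.05. The filled points all belong to degron (−) cells, with BMP4 at 0.63 for dose and 0.80 for time.

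The time points 48 h and 30 h were compared at 4 Gy. This comparison shares the 4 Gy 48 h libraries with that of dose, so the calls of BMP4 and TGFBR2 in both rest in part on the same libraries. In degron (−) cells, 3 of the 9 members were higher at 48 h and 0 lower, while 7.18% of all genes passed, 6.01% as higher and 1.17% as lower. BMP4 measured 7.07 and 8.39 FPKM at 48 h against 3.88 and 4.14 at 30 h (log2 fold change 0.80, standard error 0.0849, adjusted p = 0.00118, limma), and this call was kept without each of the 4 libraries in turn but not on only the libraries compared (adjusted p = 0.0864). TGFB2 measured 10.5 and 11.7 against 9.23 and 8.94 FPKM (0.26, adjusted p = 0.0270, limma). TGFBR2 measured 26.2 and 27.3 against 22.2 and 23.9 FPKM (0.21, adjusted p = 0.0303, limma). TGFB2 lost its call without either 30 h library or 48 h replicate 2 (adjusted p = 0.0982 to 0.176), and TGFBR2 without 30 h replicate 1 or either 48 h library (adjusted p = 0.0542 to 0.194, limma). Both also lost it with TPM (adjusted p = 0.119 and 0.0790, limma).

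In degron (++) cells, 0 of the 9 members passed the threshold of limma between 48 h and 30 h, where 1.21% of all genes did and 2050 genes had an unadjusted p under 0.05. TGFBI measured 357 and 355 FPKM at 48 h against 399 and 376 at 30 h (log2 fold change -0.12, adjusted p = 0.146, limma), and BMP4 22.6 and 25.1 against 20.3 and 21.9 (0.17, adjusted p = 0.395, limma). Tested as an interaction, the change of BMP4 from 30 h to 48 h was smaller in degron (++) than in degron (−) cells by 0.63 on the log2 scale (adjusted p = 0.0313, limma), in a comparison that 3.23% of all genes passed, 0.51% with a positive and 2.72% with a negative value. This call did not hold without 7 of the 8 libraries, taken one at a time (adjusted p = 0.0562 to 0.110), and of these fits only the one without degron (−) 4 Gy 48 h replicate 1 kept it. It was also lost without the filter on low values (adjusted p = 0.0511) and on only the libraries compared (adjusted p = 0.0734, limma). For TGFBI the interaction was -0.22 (adjusted p = 0.0521, limma).

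The levels of BMP4 in degron (−) cells followed the same order over the conditions as those of genes of 9p21, the region named above. CDKN2A, a cell cycle inhibitor there, measured 100.4 to 112 FPKM in degron (++) libraries and 11.04 to 21.1 FPKM in degron (−) libraries, so it was detected in both. The mean of BMP4 in degron (−) cells was 24.8% of that in degron (++) cells at 0 Gy, 19.0% at 30 h and 32.4% at 48 h after 4 Gy. For CDKN2A these shares were 16.2%, 11.5% and 18.5%, for CDKN2B 12.1%, 9.71% and 16.8%, and for its neighbour MTAP 22.5%, 17.0% and 29.0%. All 4 genes were thus lowest at 30 h and highest at 48 h after 4 Gy, relative to degron (++) cells, and the part of this in the values of BMP4, TGFB2 and TGFBR2 was not tested. TGFB2 stood at 63.2%, 57.5% and 65.1%, and TGFBR2 at 43.7%, 46.7% and 51.3%. The epithelial markers CDH1, EPCAM and KRT7 were also higher in degron (−) cells at 48 h after 4 Gy than at 0 Gy and than at 30 h, and the other 3 of 6 passed in neither comparison. CDH1 measured 8.36 and 7.69 FPKM at 0 Gy, 6.56 and 6.79 at 30 h, and 11.7 and 12.8 at 48 h after 4 Gy. The same 3 markers passed the time interaction with a negative value, and 0 of 6 passed for dose or time in degron (++) cells. Their part in the values of the members and of the lists below was not tested.

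The other genes of the pathways were taken from 7 lists by role. Of 129 genes, 128 were listed and 87 were tested, of which 32 (36.8%) were higher and 47 (54.0%) lower in unirradiated degron (++) cells, beside 37.6% and 40.2% of all tested genes. The counts of each list below stand beside the same shares. Their median log2 fold change was -0.28, beside -0.02 for all genes. Without each of the 4 libraries in turn, 75 of these 79 calls were kept each time. SMAD6, BAMBI, ITGB6 and SKIL stand in 2 lists each. TGFB3, GDF1, GDF5, BMP6, BMP7, BMP8B, SMAD9, LTBP2, COL1A1, MMP2 and ADAM19 reached FPKM of 1 only in degron (−) libraries. RGMA, SOSTDC1, FST and ITGB8 did so only in degron (++) libraries. As for BMPR1B, the filter largely set their side, yet they are kept in the counts and medians of the lists. Those counts and medians are thus a description and no support for a direction. All folds below are ratios of mean FPKM at 0 Gy, and genes are the first and last of each list by log2 fold change among those past the threshold.

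Among 13 further ligands tested, 4 were higher and 8 lower in degron (++) cells, with a median log2 fold change of -0.93. INHBA, the subunit of activin A, measured 54.4 ± 3.26 FPKM in degron (++) and 13.6 ± 0.877 in degron (−) cells (SD, n = 2 each). BMP5 was 6.68-fold higher and AMH, which acts in the development of the reproductive tract, 1.65-fold higher. BMP6 was lower, at 0.245 ± 0.0658 against 11.99 ± 1.21 FPKM. GDF15, a ligand induced by cell stress, was lower, at 0.255 and 0.414 against 10.2 and 10.9 FPKM. Ratios are not given for BMP6 and GDF15 because the reads behind their degron (++) values are not known. BMP7 was listed at 0 in both unirradiated degron (++) libraries and measured 4.71 ± 0.697 FPKM in degron (−) cells. BMP4 and BMP5 were therefore on the other side from BMP6 and BMP7.

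Among 9 further receptors and co-receptors tested, 3 were higher and 6 lower, with a median of -0.54. The higher genes were RGMA, a BMP co-receptor (5.20 ± 0.0976 against 0.471 ± 0.0537 FPKM), ENG, a co-receptor of TGF-β and BMP ligands (2.29-fold), and the activin receptor ACVR2A (1.80-fold). ACVR1, BMPR2 and BMPR1A, which bind BMP ligands, were 2.37-fold, 2.44-fold and 2.16-fold lower. BMPR1A measured 3.97 ± 0.541 FPKM in degron (++) and 8.58 ± 0.157 in degron (−) cells, and so stayed above BMPR1B in both populations.

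Of 18 further SMADs and SMAD regulators tested, 6 were higher and 8 lower, with a median of -0.03. BAMBI, a decoy receptor, was 4.78-fold higher, NEDD4L, a ubiquitin ligase of SMADs, 2.67-fold higher and LEMD3, which binds SMADs at the inner nuclear membrane, 1.95-fold higher. SMAD6, the inhibitory SMAD of the BMP branch, was lower, at 5.54 ± 0.956 against 14.96 ± 1.74 FPKM. SMAD9, a BMP receptor SMAD, measured 0.055 ± 0.0099 against 1.56 ± 0.221 FPKM, and the corepressor SKI was 1.78-fold lower. SMAD2, the other receptor SMAD of the TGF-β branch, was higher (8.11 ± 0.0955 against 4.98 ± 0.511 FPKM), on the other side from SMAD3; it was chosen for mention after its values were seen.

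Of 8 secreted antagonists tested, 6 were higher and 1 lower, with a median of 0.82. SOSTDC1 measured 2.46 ± 0.542 FPKM in degron (++) and 0.0765 ± 0.0375 in degron (−) cells, NBL1 was 2.28-fold higher and BMPER 3.34-fold higher. NOG, which blocks BMP4, was lower, at 2.47 ± 0.163 against 12.8 ± 0.759 FPKM.

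Of 10 genes of the latent TGF-β complex and its activation that were tested, 5 were higher and 4 lower, with a median of 0.37. ITGB6, part of an integrin that activates latent TGF-β, was 10.3-fold higher. BMP1, a protease that acts on matrix and latent complexes and is no BMP ligand despite its name, was 5.31-fold higher, and THBS1, a matrix protein that activates TGF-β, measured 299 ± 10.9 against 78.7 ± 0.131 FPKM. LTBP2 and LTBP1, latent TGF-β binding proteins by name, were lower, LTBP2 at 0.632 ± 0.108 against 63.8 ± 2.10 FPKM and LTBP1 3.29-fold. ITGAV, the partner of ITGB6, was 2.05-fold lower.

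Known targets of TGF-β were mostly lower: of 24 tested, 7 were higher and 16 lower in degron (++) cells, with a median of -0.70. ITGB6, CDKN2B (12.8 ± 0.460 against 1.55 ± 0.202 FPKM) and the matrix gene FN1 (12.8 ± 0.482 against 1.58 ± 0.145 FPKM) were the highest. MMP2, a matrix protease, measured 0.0395 ± 0.0177 FPKM in degron (++) and 59.7 ± 1.38 in degron (−) cells, ANGPTL4 0.974 ± 0.0184 and 79.1 ± 2.89, and the collagen gene COL1A1 0.568 ± 0.0523 and 48.2 ± 5.84. COL1A1 is also in the fibroblast marker list, and made up most of its sum in degron (−) cells. CTGF, a classical target, was 3.60-fold lower.

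For 9 tested targets of BMP signalling, 3 were higher and 6 lower, with a median of -1.29. ID1, ID2 and ID3, inhibitors of DNA binding that BMP signalling induces, were lower, ID1 at 87.3 ± 9.09 against 357 ± 20.9 FPKM, ID2 at 0.936 ± 0.0841 against 19.5 ± 1.79 FPKM and ID3 at 16.7 ± 1.57 against 108 ± 16.3 FPKM. GATA3 was 3.43-fold, BAMBI 4.78-fold and MSX1 1.48-fold higher. BMP4 was thus higher, and BMP6, BMP7, BMPR1A, BMPR2 and the ID genes lower, in the same unirradiated libraries.

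**Figure D4:**
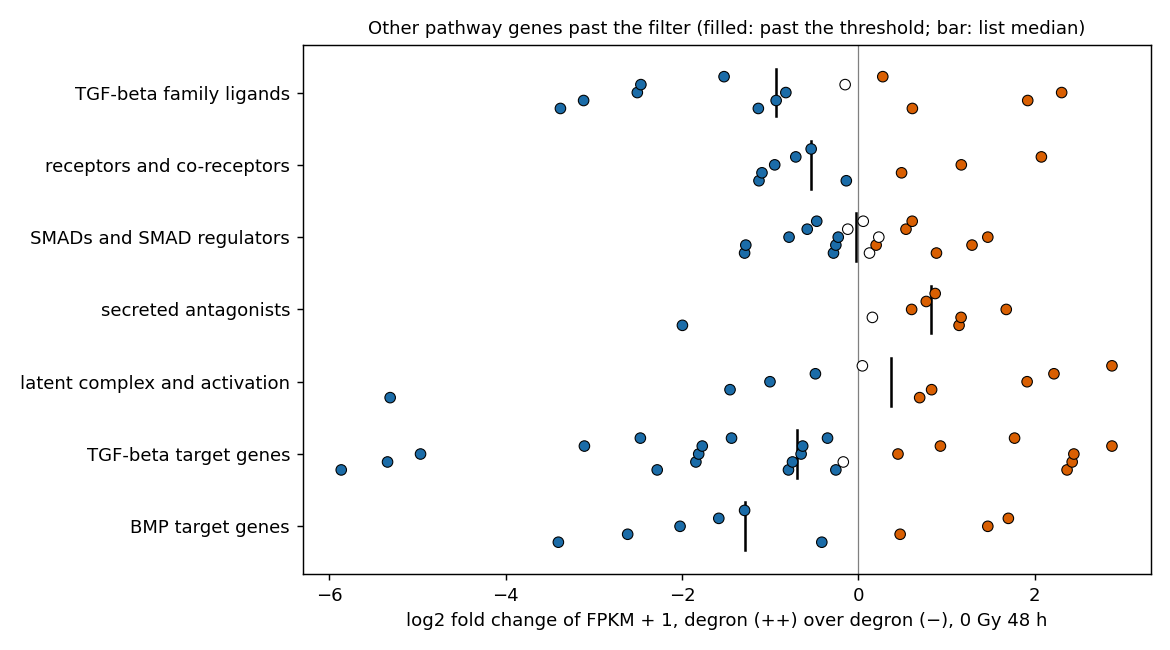
Log2 fold change of FPKM + 1 in degron (++) over degron (−) cells at 0 Gy and 48 h (horizontal axis) for the tested genes of 7 lists without the members (vertical axis, points spread for visibility). Filled points passed the threshold (orange higher, blue lower), and bars mark list medians, from -1.29 for BMP targets to 0.82 for secreted antagonists.

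Within degron (−) cells, 13 of the 87 genes were higher and 0 lower at 4 Gy than at 0 Gy, and 14 were higher and 0 lower at 48 h than at 30 h, beside 3.85% and 6.01% of all genes as higher. INHBA measured 22.6 ± 1.05 FPKM at 4 Gy and 48 h against 13.6 ± 0.877 at 0 Gy (log2 fold change 0.69, adjusted p = 0.00270, limma), and NEDD4L, THBS1, BMP1, ITGB6, BMP5, JUNB, SNAI2 and GATA3 were higher in both comparisons as well. TGFB3, GDF11, ENG and CTGF passed for dose and not for time, and BMPER, FN1, PMEPA1, CDKN2B and TGM2 for time and not for dose. TGFB3, the remaining TGF-β ligand gene, measured 6.99 ± 1.19 against 3.93 ± 0.0361 FPKM for dose (0.69, adjusted p = 0.0103, limma). These calls rest in part on the same 4 Gy 48 h libraries, and 4 of the 13 and 8 of the 14 were kept without each library in turn. On only the libraries compared, 0 of the 13 and 0 of the 14 were kept. CDH1, EPCAM and KRT7 rose in the same 2 comparisons, as given above.

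In degron (++) cells, 4 of the 87 genes were higher at 4 Gy and 0 lower, where 1.42% of all genes were higher and 0.402% lower. They included THBS1 (385 ± 8.44 against 299 ± 10.9 FPKM), BMPER and CDKN1A, a cell cycle inhibitor also induced by p53, and none of the 4 calls was kept without each library in turn or on only the libraries compared. For time, 0 were higher and 1 lower, beside 0.657% and 0.548% of all genes. This was ANGPTL4, at 1.34 ± 0.0983 against 2.69 ± 0.152 FPKM (log2 fold change -0.66, adjusted p = 0.00280, limma), a call that was kept without each library in turn and lost on only the libraries compared.

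Position along the chromosomes was described with the 20 nearest tested genes, 10 on either side by the order in RefSeq (GRCh38.p14), at 0 Gy. The counts stand beside 37.6% higher and 40.2% lower among all tested genes. Around TGFBR1, on chromosome 9, 18 of 20 neighbours were higher in degron (++) cells, with a median log2 fold change of 0.82. SMAD7 and SMAD4, both on chromosome 18, were lower themselves, while 14 and 11 of their neighbours were higher and 3 and 4 lower. Around SMAD3, on chromosome 15, where the adjacent tested gene is SMAD6, 4 were higher and 9 lower, and around BMP4, on chromosome 14, 11 were higher and 3 lower. Around TGFB2, itself higher, 3 neighbours were higher and 10 lower. Around TGFBR2 7 were higher and 9 lower, near the shares of all genes. The counts were 10 higher and 4 lower around TGFB1, 10 and 7 around TGFBI, and 9 and 9 around BMPR1B.

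The genes whose log2(FPKM + 1) was most like that of a member over the 12 libraries, by Pearson's r, were CGA (r = 0.997) and PINK1 (r = 0.9966) for BMP4, CGA (r = 0.9956) and CDKN2B (r = 0.9952) for TGFB2, and F11R (r = 0.9987) and CLDN1 (r = 0.9984) for TGFBR2. For SMAD3 they were FZD7 (r = 0.9963) and CAPZB (r = 0.9959). Values of this size are a description, since the points share libraries and fall into 2 populations. For TGFBI, which did not separate the populations, the highest r was 0.9018, with SUSD1.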

How the data were processed

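RNA of both PANC-1 populations was sequenced in 12 libraries after TruSeq stranded mRNA preparation. The values that the authors deposited are FPKM, listed by gene symbol with 1 file per library. The submitters' processing notes name TopHat2 2.1.1, Bowtie2 2.2.8, SAMtools 0.1.18, Cuffdiff 2.2.1 and build hg19, while the annotation is not given in the sources used here. FPKM hold no counts, so no intervals for counting error are given.

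log2(FPKM + 1) was tested with limma 3.58.1 (eBayes with trend, two-sided) in R 4.3.3 on the 12946 genes that reached FPKM of 1 in 2 or more of the libraries. The fit had 6 group means over all 12 libraries and Benjamini-Hochberg adjustment over all tested genes. On simulated data of the unirradiated comparison with 12946 genes, 72.5%, 93.5% and 98.0% of 200 genes changed by 0.5, 1 and 2 on the log2 scale were recovered, with 3, 4 and 7 false calls. A far larger share of genes, 77.7%, passed in the real comparison, so these rates may not hold for it. Members and lists were chosen with earlier results of these data known. Named are the members, up to 3 genes highest and lowest per list at 0 Gy, list genes past the threshold for dose, time or interaction, and the 2 genes most like a member. List genes that reached FPKM of 1 only in degron (−) or only in degron (++) libraries are also named. The values of 1 list gene are not reported here. Order and promoters came from RefSeq (GRCh38.p14), which placed 11277 tested genes. NRROS was the list gene that was not listed. Figures used Python 3.11.15 and matplotlib 3.10.9.

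Alternatives were quantile normalization, TPM, a pseudocount of 0.1, a filter at FPKM 5 or none, eBayes with no trend, a block for the replicate number, only the libraries compared and leaving out each library. TPM without MIR622 was added after the data were seen. Deviations of same-numbered libraries correlated weakly at most (15 pairs of groups, r from -0.038 to 0.122). A clear pairing by number was thus not seen, and shared cultures or batches were not tested.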

Additional observations from a re-analysis of the deposited data

Results flagged for a closer look

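The change of BMP4 from 30 h to 48 h after 4 Gy differed between the populations, with an interaction of -0.63 on the log2 scale (adjusted p = 0.0313, limma). The call was lost without 7 of the 8 libraries taken one at a time (adjusted p = 0.0562 to 0.110), without the filter on low values (adjusted p = 0.0511) and on only the libraries compared (adjusted p = 0.0734, limma). The 4 libraries of degron (−) cells gave 3.88 and 4.14 FPKM at 30 h and 7.07 and 8.39 FPKM at 48 h, and those of degron (++) cells 20.3 and 21.9 FPKM and then 22.6 and 25.1 FPKM. BMP4 was the member with such a difference. No member had one for dose.

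Among the other genes of the pathways, 10 differed between the populations in the change over time, 9 with a negative interaction, that is a smaller rise or a larger fall in degron (++) cells, and 1 with a positive one. Of all tested genes 2.72% passed with a negative and 0.51% with a positive value, so the negative sign was the more common one in general. The interaction was -0.89 for INHBA (adjusted p = 0.00601), -0.67 for THBS1 (adjusted p = 0.00468) and -0.89 for TGM2 (adjusted p = 0.00675, limma), and these 3 were kept without each of the 8 libraries in turn. It was -0.49 for NEDD4L, -0.61 for BMPER, -0.70 for ITGB6, -0.53 for BMP1, -0.60 for SNAI2 and -0.49 for ANGPTL4, which were not kept in every case. GATA2, a transcription factor that BMP signalling induces, had the positive value, 0.47 (adjusted p = 0.0318, limma), which was kept in 1 of the 8 fits without a library. For dose, BMP1 differed between the populations by -0.61 (adjusted p = 0.0462, limma), and this was not kept without each library in turn. INHBA measured 76.7 and 69.3 FPKM at 30 h and 68.8 and 64.7 at 48 h in degron (++) libraries, and 12.4 and 13.4 and then 21.8 and 23.3 in degron (−) libraries. Time and dose interactions share the 4 Gy 48 h libraries of both populations.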

How the results depend on the processing

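Of the 9 members without BMPR1B, the direction of TGFB1, TGFB2, TGFBR1, TGFBR2, SMAD3, SMAD4, SMAD7 and BMP4 between the populations was the same under every alternative run, and that of TGFBI was not. Counts of genes past the threshold between the populations stayed within 1.5 times under every alternative. Those for dose, time and interactions did not. Depth is unknown, and 2 libraries a group limit what the dose and time comparisons can show. The cause of the changes below was not tested, except that fits on only the libraries compared use fewer samples.

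With quantile normalization the log2 fold change of TGFBI between the populations was -0.0987 at 0 Gy and -0.0459 at 30 h, with TPM -0.21 and -0.13, and with TPM without MIR622 -0.12 and -0.0067. For dose in degron (++) cells TGFBI was -0.0455, -0.0528 and -0.0453 in the same order, and TGFBR2 was -0.0204 with TPM and -0.0131 without MIR622. Values near 0 also changed sign: BMPR1B for dose was -0.0141 in degron (−) cells with quantile normalization and -0.0019 in degron (++) cells with TPM, for time in degron (−) cells -0.0581 and for the dose interaction 0.0312 with quantile normalization, TGFB1 for the dose interaction -0.0014 with TPM without MIR622, and SMAD4 for time in degron (++) cells -0.0027 with a pseudocount of 0.1, -0.0425 with quantile normalization, -0.0057 with TPM and -0.0018 without MIR622.

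For dose in degron (++) cells, 236 genes passed the threshold, against 149 with quantile normalization, 57 with TPM, 55 without MIR622, 128 without trend and 17 on only the libraries compared. For dose in degron (−) cells, 612 passed, against 341 with TPM and 8 on only the libraries compared, where 0 members passed. For time in degron (++) cells, 156 passed, against 40 with TPM, 56 without MIR622, 78 without trend and 12 on only the libraries compared. For time in degron (−) cells, 930 passed, against 611 with TPM, with 1 member, and 7 on only the libraries compared, with 0 members. The dose interaction gave 10 genes, against 17 with a pseudocount of 0.1, 22 with the filter at FPKM 5, 35 with quantile normalization, 20 with TPM, 29 without MIR622 and 6 on only the libraries compared. The time interaction gave 418 genes and 1 member, against 273 genes and 0 members without the filter, 225 genes with TPM, 128 genes and 0 members on only the libraries compared, and 2 members (BMP4 and TGFBI) with a pseudocount of 0.1 or the filter at FPKM 5.

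With the replicate number as a block, dose in degron (++) cells gave 125 genes, time in degron (++) cells 88 and the dose interaction 2. SMAD4 at 48 h after 4 Gy then passed (adjusted p = 0.0409), and the block changed the call of no other member. The libraries share only a number, with a median r of 0.040 between same-numbered deviations.

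Leaving out each library in turn gave 1 to 36 genes for dose and 15 to 25 for time in degron (++) cells, 116 to 365 genes and 0 to 2 members for dose and 286 to 669 genes and 1 to 2 members for time in degron (−) cells, 0 to 18 genes for the dose interaction, and 67 to 381 genes and 0 to 1 members for the time interaction. The lowest count for dose in degron (++) cells, 1, came without its 0 Gy replicate 1, and 7 came without its 4 Gy 48 h replicate 2. Values that changed sign ran, for dose in degron (++) cells, from -0.22 to 0.14 for SMAD4, -0.0997 to 0.60 for SMAD7 and -0.0013 to 0.0399 for TGFBI. For time in degron (++) cells they ran from -0.17 to 0.18 for SMAD4, -0.0506 to 0.0482 for SMAD7 and -0.13 to 0.00025 for TGFB1, and in degron (−) cells from -0.021 to 0.0819 for BMPR1B, -0.14 to 0.0474 for SMAD4 and -0.0782 to 0.0102 for TGFB1. TGFBI between the populations at 0 Gy ran from -0.0189 to 0.0224. For the dose interaction the ranges were -0.0978 to 0.0051 for BMPR1B, -0.0898 to 0.27 for SMAD4, -0.10 to 0.0351 for TGFB2 and -0.16 to 0.0591 for TGFBR1, and for the time interaction -0.0055 to 0.18 for BMPR1B, -0.13 to 0.23 for SMAD4 and -0.093 to 0.0342 for TGFB1.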
